A study of Mus musculus with 4 samples.

Results

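Neurotransmitter and purine receptors were examined in NSCL61 cells, which initiate gliomas and derive from mouse neural stem cells lacking p53 and carrying oncogenic HRas, with or without an shRNA (a short hairpin RNA that lowers its target transcript) against Eva1. Members were the probes whose gene symbol in the platform annotation belongs to an acetylcholine, GABA, glutamate, glycine, serotonin, dopamine, adrenergic, histamine, P2X, P2Y or adenosine receptor family by its prefix. This gave 103 of the 23473 probes on the chip, each for a different gene, of which 59 encode subunits of ligand-gated ion channels, 42 encode G protein-coupled receptors and 2 carry other names today. The last are Drd1ip, now Caly, a dopamine receptor-interacting protein, and P2ry5, now Lpar6, a lysophosphatidic acid receptor. The label therefore holds for the other 101 by name, while their levels, described next, mostly lay near the lower end of the chip's range.

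The 4 arrays fell into Eva1 shRNA cells (2 arrays) and control cells (2 arrays), where the labels give the controls as the line alone and the series title speaks of a control hairpin. Both groups share the line, recorded as C57BL6 brain tissue of stage P0, and the Eva1 shRNA cells were selected with hygromycin after transfection. Whether they are a pool or 1 clone, and whether the arrays stand for separate cultures, is not stated, so p-values reflect the spread between these arrays alone, which may be technical. Eva1, now Mpzl2, a cell adhesion gene, had intensities of 8.20 and 6.21 in Eva1 shRNA cells, against 55.0 and 54.4 in control cells.

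Fast transmission uses ligand-gated channels, which are assembled from several subunits around a pore. Among them are nicotinic, GABA-A and glycine receptors, the serotonin channels, the ionotropic glutamate receptors, and P2X receptors, which open on extracellular ATP. Muscarinic, metabotropic glutamate, GABA-B, P2Y and adenosine receptors, and monoamine receptors other than the serotonin channels, act through G proteins. Those coupled to Gq act by way of phospholipase C and calcium release, others by raising or lowering cAMP. Neural progenitors and glioma cells are known to carry some of these receptors, and ATP released from stressed cells is a common ligand in that tissue.

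Most receptor probes gave little signal. Of the 103, 8 were blank on all 4 arrays (Chrm3, Chrna3, Drd1, Gabrp, Gabrq, Glra2, Htr1f and Htr7), 23 were blank on 1 to 3 arrays and 72 had a value on all 4. The receptor probes were blank in 17.5% and 17.5% of cases on the Eva1 shRNA arrays and in 24.3% and 20.4% on the control arrays, against 6.95% and 8.35%, and 12% and 10.8%, over all probes. Values of any probes that were blank on 1 to 3 arrays lay at or below 4.71 in 95% of cases, which serves here as the range near the blank limit. Of the 72 receptor genes with 4 values, 38 stayed above that range on every array, and 11 had a group mean above the median level of all genes tested. Those 11 were Adora3, Chrna1, Chrnb1, Gabbr1, Grik5, Htr2a, Htr2b, Lpar6, P2rx4, P2rx7 and P2ry2. The 72 were tested with all 13765 genes in limma on quantile-normalised log2 intensities (two-sided, Benjamini-Hochberg adjustment over all genes, threshold 0.05), and each log2 change is Eva1 shRNA minus control. Whether groups overlap is given for the normalised values unless intensities are named.

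Of the 72 tested receptor genes, 9 passed, or 12.5%, against 26.0% of all genes. The acetylcholine receptor gene Chrna1, the serotonin receptor gene Htr2b, the nucleotide receptor genes P2rx4 and P2ry6 and the GABA-A subunit gene Gabra2 fell. The ATP-gated channel gene P2rx7, the glycine receptor gene Glrb, the glutamate receptor gene Grm5 and the acetylcholine receptor subunit gene Chrnd rose. By direction, 4 rose (5.56%, against 12.5% of all genes) and 5 fell (6.94%, against 13.5%). The share called over all genes depended on level, with 31.3% of genes above the median level called and 20.6% of those at or below it. Of the receptor genes, 2 of 9 with a mean level above that median were called, and 7 of 63 below it. The median change of the 72 was -0.06, beside -0.01 for all genes, and turned to 0.12, beside 0.18, under the deposited scaling alone. That scaling gave 6 rises and 4 falls, and centring on array medians gave 3 and 7. The ion channel genes had a median of -0.04 (43 tested, 3 rose and 3 fell) and the G protein-coupled receptor genes one of -0.11 (27 tested, 1 rose and 2 fell). The difference between 12.5% and 26.0% was smaller with fewer arrays. Without control array 1, 3 receptor genes rose and 6 fell (12.5%, against 13.3% of all genes), and without control array 2, 9 rose and 3 fell (16.7%, against 16.7%). Without Eva1 shRNA array 1, 2 rose and 5 fell (9.72%, against 9.23% of all genes), and without Eva1 shRNA array 2, 1 rose and 3 fell (5.56%, against 10.6%). A call lost without an array therefore comes with fewer calls over all genes, and its log2 change in that fit is given beside it.

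**Figure D1:**
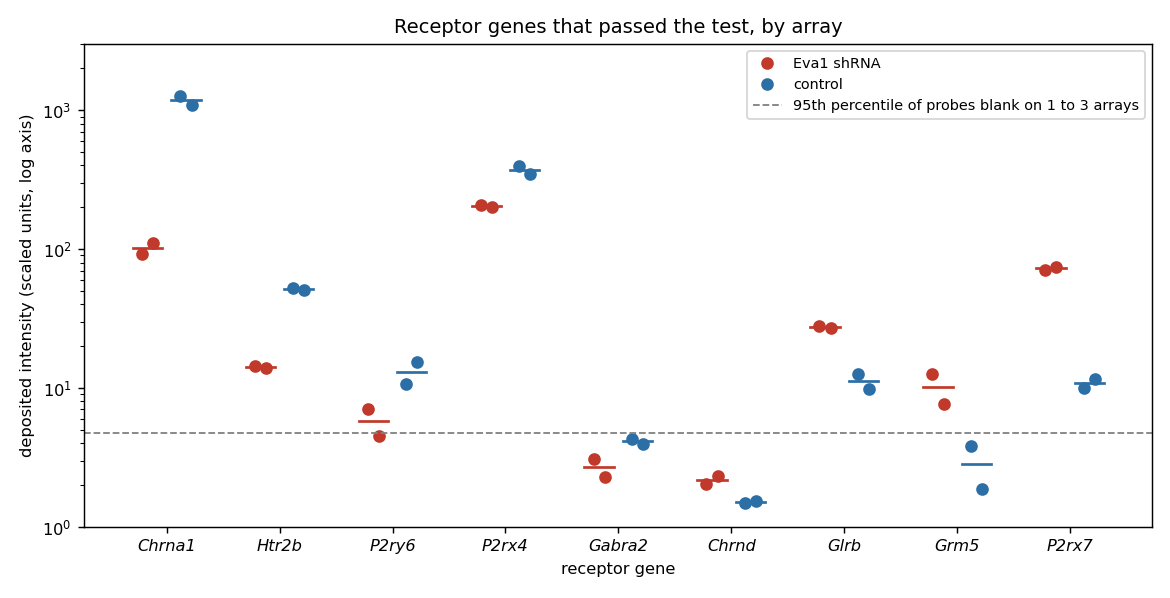
Deposited intensity on each array (log axis, scaled units) of the 9 receptor genes that passed the test, Eva1 shRNA in red and control in blue, with a bar at each group mean (n = 2 each). The groups do not overlap for any of the 9, and Gabra2 and Chrnd lie under the dashed line at 4.71 on all 4 arrays.

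Chrna1, which encodes the acetylcholine-binding alpha subunit of the muscle-type nicotinic receptor, had the largest change of the 72. Its intensities were 92.5 and 111 in Eva1 shRNA cells, against 1260 and 1099 in control cells, with means of 101 ± 12.8 and 1179 ± 114 (SD, n = 2 each). Both control arrays thus stood far above both Eva1 shRNA arrays, and all 4 values lay well above the range near the blank limit. The gene was 13.1-fold lower, with log2 change -3.71 and standard error 0.17 (adjusted p = 0.000906). It passed under all 13 alternatives tried, with log2 changes from -3.88 to -3.50. As bulk samples cannot tell fewer expressing cells from less RNA per cell, no level here is a level per cell.

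The promoter windows of Chrna1 and Htr2b are shown because these receptor genes fell under every alternative, and those of P2rx4 and P2rx7 because these neighbouring genes changed in opposite directions. They come from RefSeq (GRCm38.p6), run 5′ to 3′ on the gene's strand from 250 bases before to 50 after the start, and have capitals at the motifs CAGCTG (a form of E-box), ACGTG (the core of the hypoxia response element) and TGACG (the core of the cAMP response element) on either strand.
Chrna1: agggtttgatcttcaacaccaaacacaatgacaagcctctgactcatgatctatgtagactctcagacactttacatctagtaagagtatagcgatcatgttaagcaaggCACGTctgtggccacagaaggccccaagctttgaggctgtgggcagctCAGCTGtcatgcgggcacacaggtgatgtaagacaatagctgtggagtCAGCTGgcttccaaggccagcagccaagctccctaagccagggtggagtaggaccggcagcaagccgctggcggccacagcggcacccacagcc
Htr2b: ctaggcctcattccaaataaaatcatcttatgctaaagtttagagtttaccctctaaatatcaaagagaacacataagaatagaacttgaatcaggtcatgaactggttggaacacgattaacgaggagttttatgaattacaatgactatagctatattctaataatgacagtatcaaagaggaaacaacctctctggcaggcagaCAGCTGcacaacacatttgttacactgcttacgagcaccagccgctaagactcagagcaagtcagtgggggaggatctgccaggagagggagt
P2rx4: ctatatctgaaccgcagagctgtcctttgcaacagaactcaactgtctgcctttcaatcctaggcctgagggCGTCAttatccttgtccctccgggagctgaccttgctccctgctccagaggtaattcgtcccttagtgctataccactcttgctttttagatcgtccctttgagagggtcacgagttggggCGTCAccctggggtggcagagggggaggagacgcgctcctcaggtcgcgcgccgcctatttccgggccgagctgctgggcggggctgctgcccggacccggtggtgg
P2rx7: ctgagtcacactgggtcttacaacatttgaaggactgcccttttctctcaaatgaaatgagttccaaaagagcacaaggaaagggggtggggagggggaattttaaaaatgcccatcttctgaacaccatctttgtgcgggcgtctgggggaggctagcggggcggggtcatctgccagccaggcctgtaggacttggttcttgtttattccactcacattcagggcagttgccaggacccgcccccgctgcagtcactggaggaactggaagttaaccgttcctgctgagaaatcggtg
The windows are chr2:73580289-73580588 on the minus strand for Chrna1, chr1:86111931-86112230 on the minus strand for Htr2b, chr5:122707294-122707593 on the plus strand for P2rx4 and chr5:122643677-122643976 on the plus strand for P2rx7, the first of 2 starts listed for that gene. Chrna1 held CAGCTG at 2 places and ACGTG at 1, Htr2b held CAGCTG at 1 place, P2rx4 held TGACG at 2 places, and the P2rx7 window held none of the 3. CAGCTG occurs in 16.3% of all 32851 windows, ACGTG in 19.6% and TGACG in 20.8%, and 44.8% hold at least 1 of the 3. The wider form CANNTG, which includes CAGCTG, occurs in 72.3%, and the windows held it at 3 (Chrna1), 2 (Htr2b), 1 (P2rx4) and 4 (P2rx7) places. Of the 9 genes that passed, 6 have an entry, and of the other entries Glrb held TGACG at 1 place and Gabra2 held none of the 3. These are letter matches, not sites shown to be bound.

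The other subunit genes of the muscle-type receptor gave different values from Chrna1; the difference was not tested. Chrnb1, the beta subunit gene, had intensities of 53.2 and 58.9 in Eva1 shRNA cells, against 33.9 and 43.9 in control cells, and a log2 change of 0.35 (95% interval -0.10 to 0.79, limma adjusted p = 0.206). Chrng, the fetal gamma subunit gene, had 18.9 and 17.5 in Eva1 shRNA cells, against 18.4 and 17.4 in control cells, and its 95% interval of -0.54 to 0.17 lies within a 2-fold change. Chrne, the adult epsilon subunit gene, had 3.87 and 1.72 in Eva1 shRNA cells, against 3.72 and 4.48 in control cells (log2 change -0.82, interval -1.67 to 0.03). These 3 genes did not pass, and the intensities of Chrne and Chrng overlap between the groups. Chrnd, the delta subunit gene, had 2.05 and 2.33 in Eva1 shRNA cells, against 1.47 and 1.53 in control cells (log2 change 0.59, adjusted p = 0.0421). All 4 of its values are in the range near the blank limit, and it kept its call under only 2 of 12 alternatives, with a highest adjusted p of 0.682 and a log2 change of 0.06 when 16 intensity units were added before log2. It lost its call without each of the 4 arrays in turn (adjusted p = 0.115 and 0.0834 without control arrays 1 and 2, 0.122 and 0.214 without Eva1 shRNA arrays 1 and 2), at log2 changes from 0.45 to 0.66.

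Markers of skeletal muscle, where this receptor is best known, were read beside it. Of 16 tested, 0 rose (against 12.5% of all genes) and 3 fell (18.8%, against 13.5%). All 3 are troponin genes: Tnnt1 (-1.68), Tnni1 (-1.58) and Tnnt3 (-1.38). Both Eva1 shRNA values of Tnnt1 (3.17 and 3.34) and the lower of Tnnt3 (4.41) lie in the range near the blank limit. The summed intensity of the muscle markers was 549 and 514 in Eva1 shRNA cells, against 598 and 593 in control cells. Most of that difference lies in Tnni1, with 37.1 and 34.1 in Eva1 shRNA cells, against 92.3 and 93.1 in control cells. Myh8 had 420 and 397 in Eva1 shRNA cells, against 424 and 417 in control cells. The muscle regulators Myod1 (18.2 and 18.2 in Eva1 shRNA cells, against 18.1 and 14.3 in control cells) and Myog (5.43 and 5.84 in Eva1 shRNA cells, against 4.25 and 5.75 in control cells) did not pass, and the Myh3 probe was blank on all 4 arrays. The part of muscle genes in the change of Chrna1 was not tested.

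Among all nicotinic genes, Chrna1 and Chrnd were the calls. Of the 15, 11 were tested, and the 9 that did not pass, neuronal subunits included, had log2 changes from -0.82 to 0.59. Chrna7, whose subunits form a channel of their own, had 8.65 and 9.73 in Eva1 shRNA cells, against 3.84 and 7.08 in control cells (adjusted p = 0.175). Chrna2, at 21.6 and 21.4 in Eva1 shRNA cells and 23.4 and 24.2 in control cells, had an interval of -0.69 to -0.01 before adjustment and did not pass (adjusted p = 0.118). Neither muscarinic gene tested passed, among 4 muscarinic members: Chrm1 had 17.9 and 16.9 in Eva1 shRNA cells, against 7.96 and 13 in control cells (adjusted p = 0.144).

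**Figure D2:**
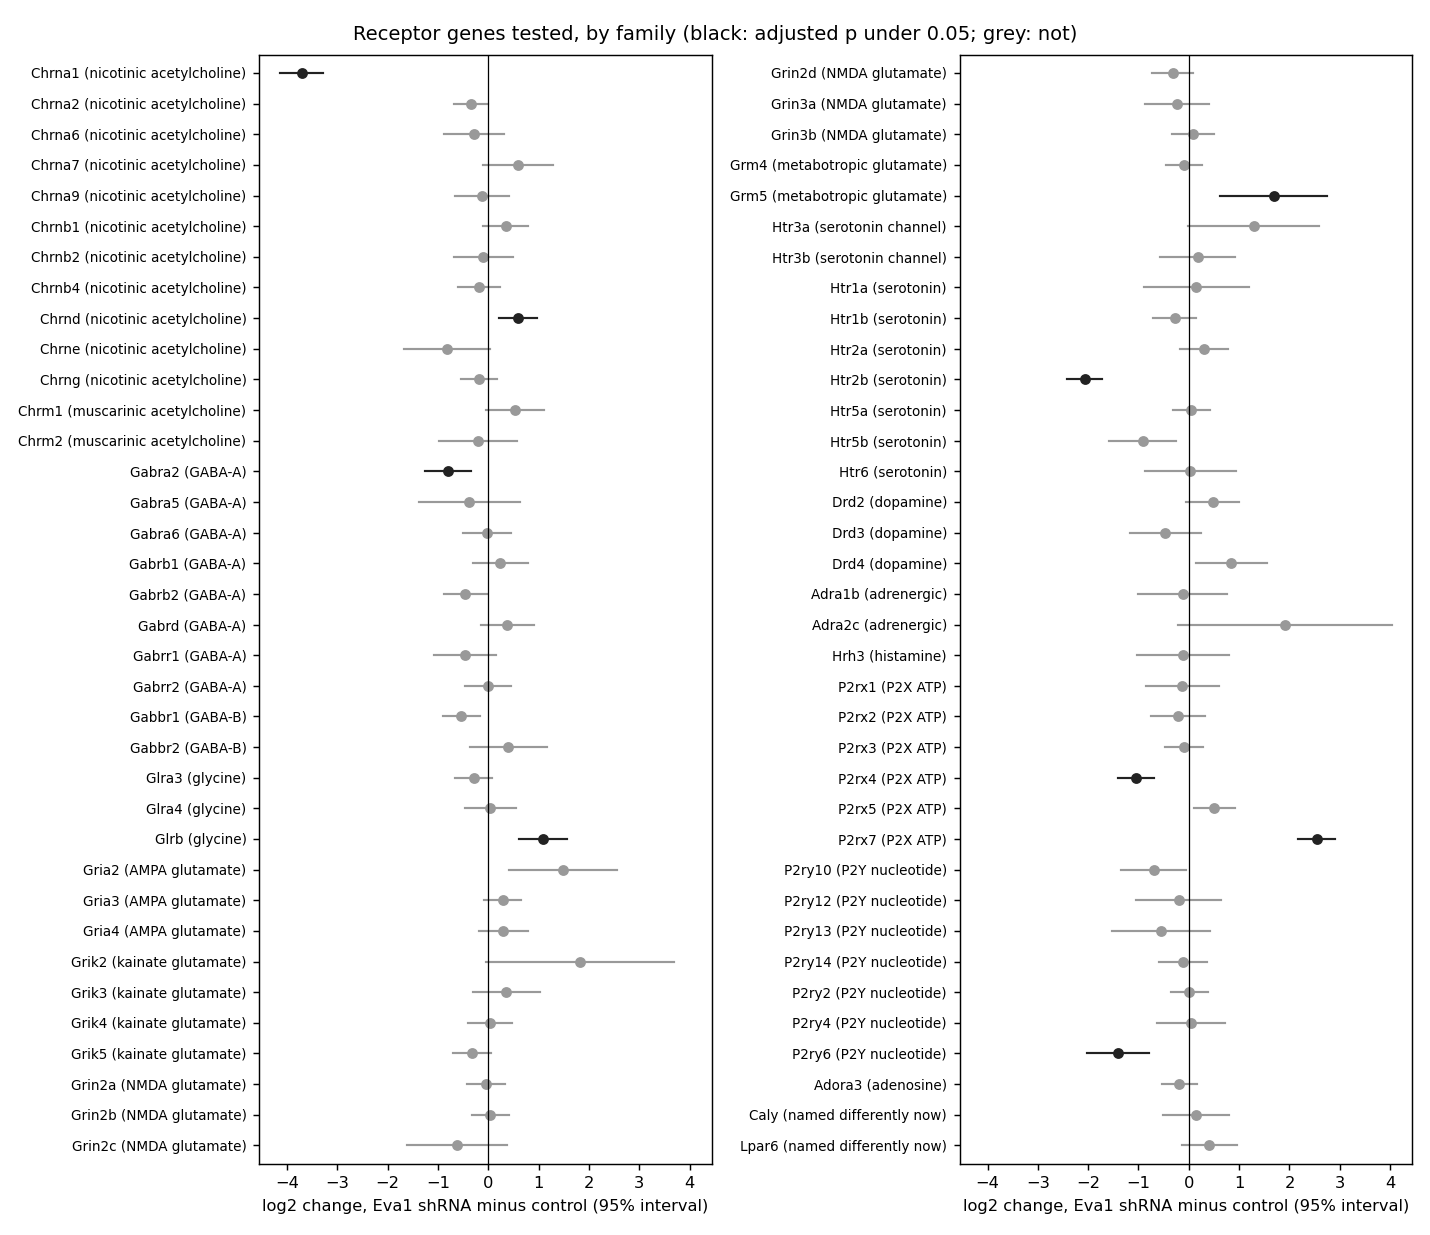
Log2 change (Eva1 shRNA minus control) with its 95% interval from limma for each of the 72 receptor genes tested, ordered by family, black where the adjusted p is under 0.05 and grey otherwise. Chrna1 lies alone at -3.71, and for 41 of the 63 genes that did not pass the whole interval lies within a 2-fold change.

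Among receptors for extracellular nucleotides, 2 P2X genes passed in opposite directions. P2rx7, an ATP-gated channel that needs high ATP and is known for inflammasome activation in myeloid cells, had intensities of 71.1 and 74.7 in Eva1 shRNA cells, against 9.95 and 11.6 in control cells. It was 5.84-fold higher, with log2 change 2.55 and standard error 0.15 (adjusted p = 0.00105), and passed under all 13 alternatives. P2rx4, an ATP-gated channel found in lysosomes and at the cell surface, had 206 and 201 in Eva1 shRNA cells, against 396 and 349 in control cells. It was 2.06-fold lower, with log2 change -1.04 and standard error 0.14 (adjusted p = 0.00711), and without Eva1 shRNA array 1 it missed the threshold (adjusted p = 0.0525) at a log2 change of -1.03. Neither gene's groups overlapped. The log2 change of P2rx7 was 1.6 with 16 units added, a scale that damps changes of dim probes.

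P2rx7 and P2rx4 are neighbouring protein-coding genes on mouse chromosome 5 in RefSeq. The span of P2rx4 overlaps that of Camkk2, a kinase gene with a log2 change of 0.61 (adjusted p = 0.0535). The other P2X genes tested, P2rx1, P2rx2, P2rx3 and P2rx5, did not pass, with changes from -0.22 to 0.50. P2rx5 had 42.9 and 33.0 in Eva1 shRNA cells, against 22.8 and 23.4 in control cells (adjusted p = 0.0753). Its groups do not overlap, and it was called under the deposited scaling (0.71), with the dimmest probes left out (0.50), with 16 units added (0.33) and with a trend in the variance (0.50).

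P2ry6, a Gq-coupled receptor for UDP, was the P2Y gene that passed. Its intensities were 7.03 and 4.53 in Eva1 shRNA cells, against 10.7 and 15.3 in control cells, with log2 change -1.40 and standard error 0.25 (adjusted p = 0.0146). The lower Eva1 shRNA value lies in the range near the blank limit, the change was -0.49 with 16 units added, and the call was lost without control array 2 (-1.21, adjusted p = 0.0615) or Eva1 shRNA array 2 (-1.13, adjusted p = 0.0636). Its neighbour P2ry2, a Gq-coupled receptor for ATP and UTP, had 108 and 111 in Eva1 shRNA cells, against 88.5 and 102 in control cells, and a log2 change of 0.01 (interval -0.36 to 0.38). P2ry14, a receptor for UDP sugars, had 26.4 and 18.4 in Eva1 shRNA cells, against 20.1 and 21.3 in control cells. The microglial receptor gene P2ry12 had 2.89 and 2.95 in Eva1 shRNA cells, against 4.01 and 2.22 in control cells, and P2ry13 did not exceed 3.03 on any array. The adenosine receptor gene Adora3 had 46.5 and 47.3 in Eva1 shRNA cells, against 46.7 and 47.4 in control cells, with an interval of -0.53 to 0.16.

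P2X and P2Y receptors are abundant in microglia and macrophages, so their markers were read beside these genes. Of 9 tested, 0 rose (against 12.5% of all genes) and 1 fell (11.1%, against 13.5%), the lysosomal gene Cd68 (-1.17). Their summed intensity was 242 and 237 in Eva1 shRNA cells, against 316 and 287 in control cells. That sum includes Cd68, with 77.3 and 89.3 in Eva1 shRNA cells, against 181 and 148 in control cells. The gap of Cd68 is wider than that of the sum, so the sum shows no fall of the other markers. C1qa and C1qb stayed at or below 3.59 on all arrays, while Csf1r had 53.0 and 44.5 in Eva1 shRNA cells, against 34.0 and 38.0 in control cells, and did not pass. The part of such cells in the P2X and P2Y results was not tested.

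Among serotonin receptors, Htr2b, which signals through Gq, was the gene that passed. Its intensities were 14.3 and 14.0 in Eva1 shRNA cells, against 52.6 and 50.8 in control cells, with means of 14.2 ± 0.269 and 51.7 ± 1.28 (SD, n = 2 each). The replicates lay close together and the groups far apart. The gene was 4.19-fold lower, with log2 change -2.07 and standard error 0.14 (adjusted p = 0.00129), and it passed under all 13 alternatives, with -1.28 when 16 units were added. The span of Htr2b overlaps that of the proteasome gene Psmd1 in RefSeq, and Psmd1 had a log2 change of -0.28 (adjusted p = 0.317). Htr2a, the related Gq-coupled receptor gene, had 82.1 and 89.2 in Eva1 shRNA cells, against 52.2 and 69.6 in control cells, and did not pass (log2 change 0.30, interval -0.18 to 0.78). Htr1b, a Gi-coupled receptor gene, had 32.3 and 28.3 in Eva1 shRNA cells, against 34.7 and 29.1 in control cells. The channel subunit gene Htr3a had 7.02 and 6.30 in Eva1 shRNA cells, against 1.51 and 4.36 in control cells, a change of 1.29 with an interval of -0.01 to 2.59.

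Inhibitory receptor genes gave 1 rise, Glrb, and 1 fall, Gabra2. Glrb, the glycine receptor beta subunit that anchors the receptor to gephyrin, had 28.1 and 26.8 in Eva1 shRNA cells, against 12.6 and 9.86 in control cells. It was 2.13-fold higher, with log2 change 1.09 and standard error 0.19 (adjusted p = 0.0142), or 0.56 with 16 units added. Without Eva1 shRNA array 1 or 2 it missed the threshold (adjusted p = 0.0734 and 0.0729) at log2 changes of 1.10 and 1.09. Among genes of its ligand-binding partners, Glra2 was blank on every array, Glra1 was blank on both Eva1 shRNA arrays and had 2.26 and 2.23 on the control arrays, and Glra3 had 14.8 and 12.2 in Eva1 shRNA cells, against 13.5 and 14.7 in control cells. Gphn, the gephyrin gene, had 40.3 and 36.5 in Eva1 shRNA cells, against 22.7 and 29.4 in control cells, and did not pass (adjusted p = 0.17).

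Of 14 GABA-A genes, 8 were tested and Gabra2 fell, with 3.09 and 2.27 in Eva1 shRNA cells, against 4.28 and 3.95 in control cells (log2 change -0.80, adjusted p = 0.0312). All 4 values lie in the range near the blank limit, and the call held under 4 of 12 alternatives, with -0.14 when 16 units were added. It was lost without each of the 4 arrays (adjusted p from 0.0595 without control array 2 to 0.146 without Eva1 shRNA array 2), at log2 changes from -0.95 to -0.63. The other 7 had changes from -0.47 to 0.38. Gabbr1, the GABA-binding subunit of the GABA-B receptor, had 47.9 and 42.0 in Eva1 shRNA cells, against 53.2 and 60.9 in control cells. Its groups do not overlap, and its log2 change of -0.54 narrowly missed the threshold (adjusted p = 0.0503), with calls under 4 of 13 alternatives.

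Excitatory glutamate receptor genes yielded 1 call. Grm5, a Gq-coupled metabotropic receptor, had 12.7 and 7.65 in Eva1 shRNA cells, against 3.79 and 1.89 in control cells, with log2 change 1.68 and standard error 0.43 (adjusted p = 0.0399). Both control values lie in the range near the blank limit, and the change was 0.41 with 16 units added. The call was lost with blank cells filled (1.65, adjusted p = 0.0771) and without control array 2 (1.11, adjusted p = 0.0854). It was also lost without Eva1 shRNA array 1 (1.35, adjusted p = 0.161) or 2 (1.98, adjusted p = 0.0776). None of the 6 NMDA genes tested passed, with changes from -0.62 to 0.08, nor did any of the 4 kainate or 3 AMPA genes. Grik5, a kainate subunit, had 48.3 and 45.3 in Eva1 shRNA cells, against 54.7 and 48.5 in control cells (interval -0.70 to 0.06). Gria2, the AMPA subunit that limits calcium entry, had 9.25 and 12.5 in Eva1 shRNA cells, against 2.15 and 5.32 in control cells (log2 change 1.49, adjusted p = 0.0571). Gria2 was called under the deposited scaling (1.67) and with 16 units added (0.40). It was also called with the replicate number as a block and with a trend in the variance (1.49 in both), and without control array 2 (2.12). Grik2 had 6.71 and 33.2 on the Eva1 shRNA arrays, against 3.50 and 3.79 in control cells, so its change of 1.83 rests largely on Eva1 shRNA array 2.

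Dopamine, adrenergic and histamine receptor genes did not pass. Of 5 dopamine receptor genes 3 were tested, with Drd4 at 6.56 and 7.42 in Eva1 shRNA cells, against 2.54 and 4.59 in control cells (log2 change 0.84, adjusted p = 0.0801). Adra2c, a Gi-coupled adrenergic receptor gene, had 15.0 and 17.7 in Eva1 shRNA cells, against 1.58 and 9.81 in control cells (log2 change 1.91, interval -0.21 to 4.04). The control arrays thus differed more from each other than the nearer one did from the Eva1 shRNA arrays. Adra2c was called with 16 units added (0.54), with a trend in the variance (1.91) and without control array 2 (3.31). Of 4 histamine receptor genes 1 was tested. Lpar6 had 272 and 291 in Eva1 shRNA cells, against 155 and 231 in control cells, and did not pass (adjusted p = 0.225), and Caly had an adjusted p of 0.724.

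**Figure D3:**
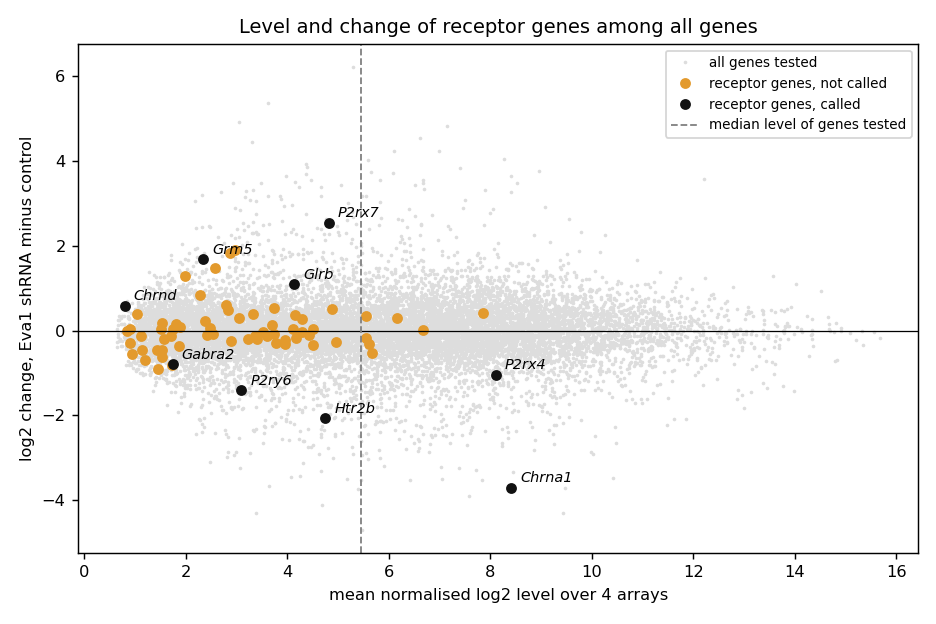
Mean normalised log2 level over the 4 arrays against log2 change (Eva1 shRNA minus control) for all 13765 genes tested (grey), with the receptor genes that passed (black, named) and did not (orange). Of the 72 receptor genes, 63 lie at or left of the dashed median level, and P2rx4 and Chrna1 are the 2 to its right that passed.

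By size alone, group means were at least 2-fold apart with no overlap for 11 of the 72 genes (15.3%, against 12.1% of all genes). Besides 7 that passed these were Adra2c, Gria2, Grik2 and Htr3a, named after their values were seen. Each of those 4 was higher in Eva1 shRNA cells, and each had at least 1 control value at or below 4.71. At any distance the groups did not overlap for 36 genes, or 50%, against 66.7% of all genes. In 5 further genes both arrays of 1 group were blank and both of the other filled: Chrm4, Gabrg1, Grik1 and Hrh2 had values on the Eva1 shRNA arrays alone and Glra1 on the control arrays alone. Over all 23473 probes, 433 were filled on both Eva1 shRNA arrays alone and 101 on both control arrays alone, so the same direction prevailed across the chip. None of these values exceeded 3.07, and no fold is given for them.

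Lists of genes around the receptors were read against the same shares of all genes, 12.5% that rose and 13.5% that fell. Of 14 genes tested that make and break down transmitters, 2 rose (14.3%) and 5 fell (35.7%), with a median of -0.36. Tph2, the neuronal form of the enzyme that limits serotonin synthesis, had 65.2 and 58.0 in Eva1 shRNA cells, against 10.9 and 9.31 in control cells (log2 change 2.41, standard error 0.17, adjusted p = 0.00142) and passed under all 13 alternatives. Tph1, the form of peripheral tissues, had 6.02 and 6.17 in Eva1 shRNA cells, against 9.64 and 13.6 in control cells (-1.13, adjusted p = 0.0118). Maoa, which oxidises serotonin, had 490 and 455 in Eva1 shRNA cells, against 224 and 238 in control cells (0.86, adjusted p = 0.0108), while Maob had 12.7 and 13.2 in Eva1 shRNA cells, against 23.1 and 21.9 in control cells (-1.02, adjusted p = 0.00864). Ddc, which completes serotonin synthesis, had 5.94 and 4.86 in Eva1 shRNA cells, against 7.26 and 6.92 in control cells (-0.61, adjusted p = 0.0443). Aldh5a1, which breaks down a GABA product, and Srr, which makes D-serine, also fell (-0.96 and -0.66); these and Ddc were named after their values were seen. Leaving out Eva1 shRNA array 1 gave an adjusted p of 0.0730 for Tph1, 0.0723 for Maoa and 0.0612 for Maob, at log2 changes of -1.06, 0.84 and -0.95.

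Of 18 tested genes of purine release, breakdown and uptake, 2 rose (11.1%) and 1 fell (5.56%), with a median of 0.16. Nt5e, the ectoenzyme that makes adenosine from AMP, had 3.06 and 2.73 in Eva1 shRNA cells, against 5 and 5.52 in control cells (-1.05, adjusted p = 0.00625, and -0.21 with adjusted p = 0.105 when 16 units were added). Enpp3, an ectonucleotidase, rose by 1.42 and the nucleoside transporter gene Slc29a1 by 0.58 (adjusted p = 0.0311 and 0.0496). Both control values of Enpp3 (3.81 and 2.15) lie in the range near the blank limit, and its change was 0.33 with 16 units added. Enpp3 passed under 9 of 12 alternatives, with a highest adjusted p of 0.119, at a log2 change of 1.40. Slc29a1 passed under 5 of 13, and missed the threshold with median centring (0.0636), blank cells filled (0.0771), the replicate block (0.0663), every probe tested (0.0619) and each array left out (adjusted p from 0.0937 to 0.226). Entpd5, an ER nucleotidase gene, had -0.71 and did not pass (adjusted p = 0.0538). Of 27 assembly and scaffold genes, 2 rose (7.41%) and 3 fell (11.1%), with a median of -0.07. Tmem35a, which encodes the nicotinic receptor chaperone NACHO, had 199 and 150 in Eva1 shRNA cells, against 36 and 31.6 in control cells (2.16, standard error 0.19, adjusted p = 0.0023) and passed under all 13 alternatives. Lynx1, a membrane-anchored modulator of nicotinic receptors, rose by 1.28 (adjusted p = 0.00841, and 0.0556 without Eva1 shRNA array 1). Shank2 (-1.16) and Homer3 (-0.96), postsynaptic scaffold genes of glutamate receptors, fell. Shank2 lost its call without Eva1 shRNA array 1 (-1.25) or 2 (-1.09). Homer3 lost its call without Eva1 shRNA array 1 (-0.80) and without control array 1 (-0.93) or 2 (-0.98). Lrp4, named after its value was seen, fell by 0.61.

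Of 41 tested G protein, effector and desensitisation genes, 2 rose (4.88%) and 7 fell (17.1%), with a median of -0.04, and the 22.0% called lies below the 26.0% of all genes. Arrb1, which encodes an arrestin that uncouples receptors, had 18.1 and 17.0 in Eva1 shRNA cells, against 73.5 and 58.3 in control cells (-2.11, standard error 0.18, adjusted p = 0.00221). Plcb3, a phospholipase C activated by Gq, had 61.9 and 53.6 in Eva1 shRNA cells, against 146 and 130 in control cells (-1.44, adjusted p = 0.00382). Itpr3, a calcium release channel of the endoplasmic reticulum, had 655 and 497 in Eva1 shRNA cells, against 1397 and 1348 in control cells (-1.41, adjusted p = 0.00517). These 3 passed under all 13 alternatives. Plcb4 (-0.81), Itpr1 (-0.76), the receptor kinase gene Grk5 (-0.92) and the adenylyl cyclase gene Adcy7 (-1.14) also fell, and Prkar1a (0.58), a regulatory subunit gene of protein kinase A, rose. The choice of these 5 followed their values. Both Eva1 shRNA values of Adcy7 (4.10 and 3.23) lie in the range near the blank limit. Prkar2b, another such subunit gene, rose by 0.99 (adjusted p = 0.00916, and 0.0612 without Eva1 shRNA array 2). The related genes Arrb2 (-0.34), Plcb1 (-0.32), Plcb2 (0.47) and Itpr2 (0.01) and the G protein genes Gnaq (0.13) and Gna11 (0.28) did not pass.

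**Figure D4:**
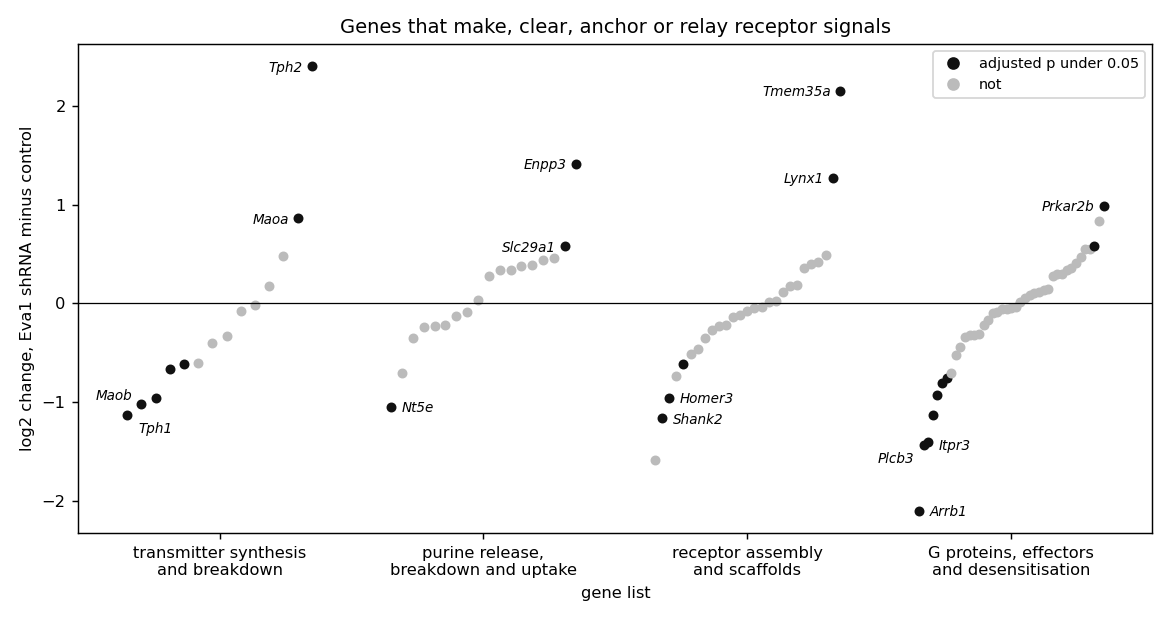
Log2 change (Eva1 shRNA minus control) of each tested gene in the 4 lists around the receptors, sorted within a list, black where the adjusted p is under 0.05. Tph2 at 2.41 and Tmem35a at 2.16 are the highest points and Arrb1 at -2.11 is the lowest.

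Markers of cell identity, in lists of at most 16 tested genes, gave the following. Of 8 tested neural stem cell markers, 0 rose and 2 fell (Fabp7 and Sox9), while Nes had 435 and 430 in Eva1 shRNA cells, against 532 and 537 in control cells, and was well above the range near the blank limit throughout. Neuronal markers gave 2 rises (Elavl4 at 1.02 and Tubb3 at 0.84) and 2 falls (Nefl at -2.49 and Nefm at -2.32) among 12 tested. Their summed intensity was 724 and 752 in Eva1 shRNA cells, against 2574 and 2749 in control cells, with Nefl at 480 and 479 in Eva1 shRNA cells, against 2344 and 2525 in control cells. Astrocyte markers gave 1 rise and 2 falls among 5 tested, oligodendrocyte lineage markers 0 and 2 among 8, and endothelial markers 1 and 1 among 5. The part of these differences in the receptor changes was not tested.

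**Figure D5:**
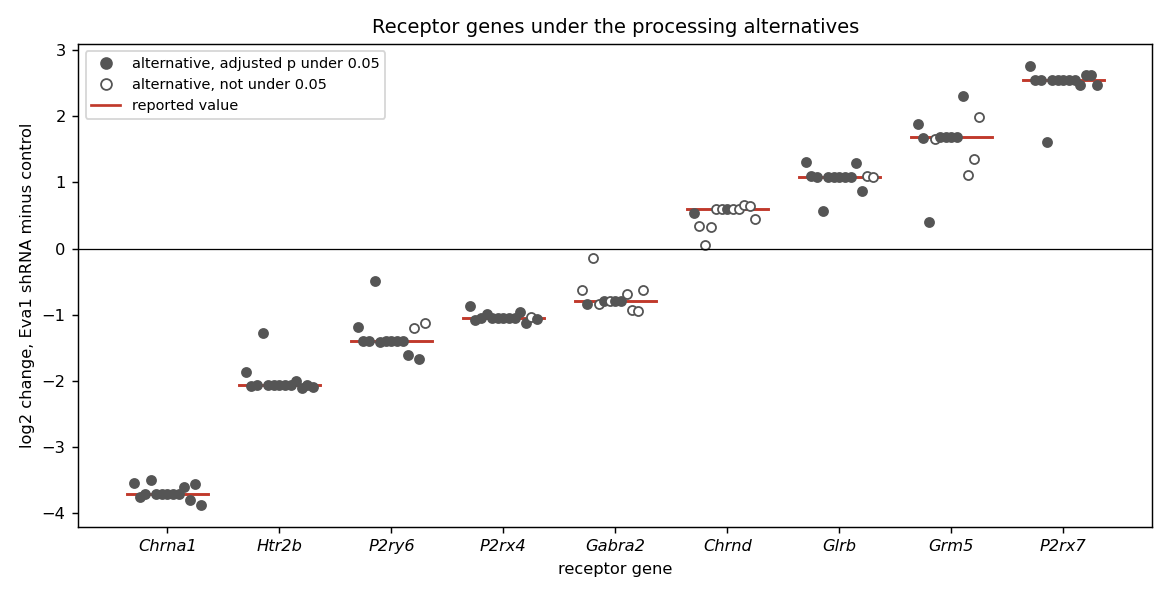
Log2 change (Eva1 shRNA minus control) of the 9 receptor genes that passed, as reported (red bar) and under up to 13 alternatives (points, filled where the adjusted p is under 0.05). Every point keeps the direction of its red bar, and the calls of Chrna1, Htr2b and P2rx7 hold at each point.

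Chrna1, Htr2b and P2rx7 passed whichever array was left out, with a highest adjusted p of 0.0151, 0.0168 and 0.0154, each without control array 1. P2rx4 passed under 12 of 13 alternatives, Glrb and P2ry6 under 11 of 13, Grm5 under 8 of 12, Gabra2 under 4 of 12 and Chrnd under 2 of 12. Gene by gene, the 63 receptor genes that did not pass include 41 whose 95% interval lies within a 2-fold change, and 22 whose interval reaches beyond it, so that a 2-fold change is not excluded for them.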

How the data were processed

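Amplified total RNA of 4 samples, coupled to Cy5, was read in 1 colour on the 3D-Gene mouse array, per the labels' protocols. The deposited intensity values are linear and were scaled by the authors to an array median near 25.0, as the values show; scanner, background correction and rule for blank cells stand as not given in the sources used here. Symbols came from the platform annotation and were updated through RefSeq (GRCm38.p6).

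Log2 intensities of the 19199 probes filled on all 4 arrays had array medians up to 0.274 apart, above a limit of 0.1, and were quantile normalised, with the brightest probe kept per gene. Groups were compared with limma 3.58.1 in R 4.3.3 (lmFit, eBayes). The fit was tested on simulated data with independent normal noise and spreads shuffled between genes. That test cannot show how the fit treats dim probes whose spread depends on level, and no result here rests on it. The number of arrays limits the precision. Across probes, which are not independent, Pearson's r between replicates was 0.993 for Eva1 shRNA and 0.991 for control.

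The members, the gene lists and the naming rule were chosen with earlier results of these data known. The rule named members that passed or had a group mean above the median gene, those blank in 1 group alone, and up to 4 genes a list by smallest p; members or list genes named beyond it were chosen after their values were seen. Alternatives kept the deposited scaling, centred arrays on medians, dropped the dimmest 25% of probes, added 16 units, filled blank cells with the array minimum, blocked on the replicate number, let the variance follow a trend, averaged a gene's probes, tested every probe, or left out each array, where a lone array is assumed to vary like the others. Promoter windows were matched for 80 members. Figures used matplotlib 3.10.9 in Python 3.11.15.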

Additional observations from a re-analysis of the deposited data

How the results depend on the processing

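The count of receptor genes that rose was 4, and it lay between 3 and 6 under every alternative run other than eBayes with trend, which gave 8, and leaving out single arrays, which gave 1 to 9. The count that fell was 5, between 4 and 7, and 3 to 6 with an array left out. These counts stand beside a share of all genes called that itself moved: 36.3% with trend, 42.5% with the dimmest probes left out, 35.7% with 16 units added, 29.1% under the deposited scaling, 17.1% with blank cells filled and 9.23% to 16.7% with an array left out. The median change of -0.06 became 0.12 under the deposited scaling, where that of all genes became 0.18, -0.10 with the dimmest probes left out, -0.017 with 16 units added and -0.061 to -0.0093 with an array left out, beside an SD of 0.037 for this median between replicates. With the replicate number as a block, 5 rose and 5 fell, Chrnd lost its call (adjusted p = 0.0598), and Drd4 and Gria2 gained one. Whether the shared numbers pair the arrays is not known from the sources used here. Deviations of same-numbered arrays from their group means correlated at -0.0247 across genes, so no shared shift was seen. With so few arrays a group, that value cannot settle whether they were paired. The change of P2ry2, not called, ran from -0.070 with control array 1 left out to 0.21 under the deposited scaling. Leaving out control array 2 gave it 0.10, and leaving out Eva1 shRNA array 2 gave it -0.03. Filling blank cells raised the receptor genes tested to 95, with 4 rises and 5 falls. Leaving out the dimmest probes lowered them to 36, with 3 and 5. Signal near the blank limit restricts what can be said of the 34 tested receptor genes with at least 1 value at or below 4.71. The cause of the differences between settings was not tested.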

Other observations

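Some partly blank receptor probes had values that no comparison above uses. P2ry1, a Gq-coupled ADP receptor gene, had 11.8 and 12.3 on the Eva1 shRNA arrays, against a blank cell and 50.6 on the control arrays, so the control arrays disagreed on whether it was measured at all. Hrh1, a Gq-coupled histamine receptor gene, had 11.1 and 7.39 on the Eva1 shRNA arrays, against a blank cell and 4.31 on the control arrays. P2rx6 had 5.39 and 4.65 on the Eva1 shRNA arrays, against 1.84 and a blank cell on the control arrays, with no test on these values. With blank cells filled by the lowest value of their array, P2rx6 (1.5), Hrh2 (0.92) and Glra1 (-0.88) were called and Chrnd, Gabra2 and Grm5 were not. Those 3 changes rest on the filled value and are no measured folds.

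Position in the genome gave a further description of the genes that passed. The nearest protein-coding genes on either side of each were taken from RefSeq. Chn1, which encodes a Rac GTPase-activating protein and lies beside Chrna1 on chromosome 2, also fell, with a log2 change of -2.24 (limma adjusted p = 0.00134). The other tested neighbours outside the receptor set did not pass: Prss56, Cox7b2, Tyr, Ctsc, Psmd1, Armc9, Camkk2, Ift81 and Arhgef17. Their changes ran from -0.39 to 0.68, and over all genes 26.0% passed. Gria2 (1.49, adjusted p = 0.0571) lies beside Glrb on chromosome 3. Chrng, beside Chrnd on chromosome 1, had -0.19 (adjusted p = 0.382). Neighbours were looked up after the calls were known, and no test of position was made.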
